A study of Homo sapiens with 9 samples.

Results

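The THO complex is a set of proteins that binds messenger RNA while it is made and spliced, and this report follows the mRNAs that encode its subunits THOC1, THOC2, THOC3, THOC5, THOC6 and THOC7. The genes were chosen by name, as 6 of the 56347 genes to which transcripts could be assigned, and they carry 82 of the 183122 assigned transcripts. mRNA was sequenced separately from the nuclei and the cytoplasm of an established human kidney line, which the labels name as HEK293 and the methods as 293T. The groups were control nuclei (3 samples), RNAi nuclei (3 samples), RNAi cytoplasm (2 samples, replicates 1 and 2) and control cytoplasm (1 sample, replicate 2). RNAi stands here for siRNAs against WTAP and KIAA1429 given together, and control cells received a control siRNA. Either siRNA treatment was at 10 nM and lasted 72 hours, and the cells were transfected again at 48 hours, so every sample had been transfected.

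THO joins the RNA helicase DDX39B and the adaptor ALYREF in the TREX complex, which passes finished mRNA to the export receptor NXF1. Within THO, THOC2 is the large scaffold subunit, THOC1 (the human counterpart of yeast Hpr1) and THOC3 belong to the core that is shared with yeast, and THOC5, THOC6 and THOC7 are further subunits of the human complex. WTAP and KIAA1429 (gene symbol VIRMA) are subunits of the complex that writes the m6A methyl mark on mRNA. The comparisons address whether the mRNAs of the export complex themselves change level or position when this writer is depleted.

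Estimated counts summed to between 11627403 and 19036141 per sample. Levels are given as CPM, estimated counts scaled to the TMM-adjusted library size. A gene is called changed where its log2 fold change passed 0.5 in either direction and its false discovery rate (FDR) was below 0.1 in the quasi-likelihood test of edgeR, fitted over 16181 genes. The labels number the replicates without saying what separated them, so the tests measure the spread between these samples, and the control cytoplasm has no replicate. Both siRNA targets were lower in every RNAi sample than in any control sample of the same fraction. WTAP fell to 56.2% of the control in nuclei (log2 fold change -0.83, SE 0.13, FDR 0.0169) and to 30.3% in cytoplasm (-1.72, SE 0.18, FDR 0.00079), and KIAA1429 fell to 47.2% in nuclei (-1.08, SE 0.21, FDR 0.0314) and to 23.8% in cytoplasm (-2.07, SE 0.32, FDR 0.00268). The nuclear call of KIAA1429 held in 10 of 15 alternatives, and was lost without RNAi nuclear replicate 2 (-0.93, FDR 0.122), RNAi nuclear replicate 3 (-1.05, FDR 0.141) or control nuclear replicate 3 (-0.88, FDR 0.122). Of the markers listed for HEK293 cells VIM, KRT8, KRT18, NEFM and PAX2 were detected in every sample and NEFL was not analysed here, while PTPRC, ALB and HBB stayed below 1 CPM. The 5 listed nuclear RNAs summed to 264 to 361 CPM in control nuclei, 401 to 428 CPM in RNAi nuclei, 37.1 CPM in control cytoplasm and 24.1 to 24.6 CPM in RNAi cytoplasm. The listed cytoplasmic and mitochondrial RNAs, mostly mitochondrial by counts, did not separate the fractions by their sum (97750 to 187702 CPM in control nuclei, 101652 to 165041 in RNAi nuclei, 83996 in control cytoplasm and 100869 to 144050 in RNAi cytoplasm). GAPDH, EEF1A1 and RPLP0 of that list each did so, with 2830 to 3418 CPM of GAPDH in nuclei and 5757 to 6614 CPM in cytoplasm. MT-CO1 separated them in the other direction, with 36766 to 86275 CPM in nuclei and 19675 to 35964 CPM in cytoplasm. The other listed mitochondrial RNAs (MT-CO2, MT-CYB, MT-ND1 and MT-ND4) overlapped between the fractions.

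All 6 members passed the filter on low counts. The change of the nuclear/cytoplasmic ratio after RNAi was called for 2 members, THOC1 and THOC2, both with a higher ratio, where 18.2% of all tested genes were called, 10.4% higher and 7.87% lower. In cytoplasm THOC1, THOC2 and THOC7 fell (3 of 6, against 24.6% of all genes called, 14.2% lower and 10.4% higher). In nuclei only THOC2 was called, as higher (1 of 6, against 4.89% called, 2.47% higher and 2.42% lower). Between the fractions of RNAi cells 2 members were higher in nuclei (THOC1 and THOC2) and 2 lower (THOC3 and THOC7), where 57.8% of all genes were called, 32.9% higher and 24.9% lower. Between the fractions of control cells THOC3 and THOC7 were lower in nuclei and no member was higher, where 50.8% were called, 28% higher and 22.7% lower. The median log2 change over the 6 members was 0.31 for the ratio, -0.01 in nuclei and -0.52 in cytoplasm, beside medians over all tested genes of -0.05, 0.00 and 0.01. As CPM are shares of a library and the samples are bulk, less RNA per cell and fewer cells that hold the RNA cannot be told apart. Levels in nuclei and in cytoplasm are likewise relative to the other RNAs of each library. A nuclear/cytoplasmic ratio here therefore does not give how the molecules of a gene were split between the fractions.

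**Figure D1:**
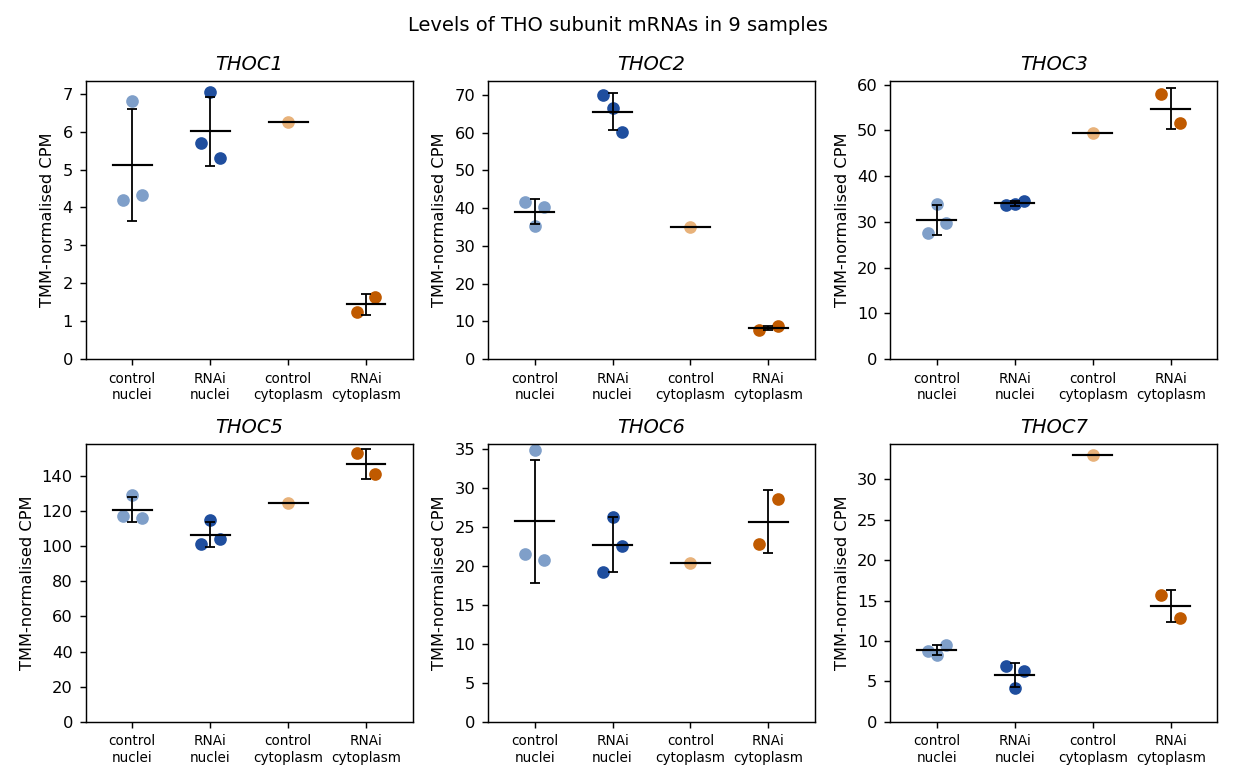
TMM-normalised CPM (y axis, from 0) of the 6 THO subunit mRNAs in the 9 samples, by group. Points are samples, horizontal lines are group means and bars are SD, with no bar for the single control cytoplasmic sample. THOC2 rises in RNAi nuclei and falls in RNAi cytoplasm, THOC1 falls in RNAi cytoplasm, THOC7 is lower in both RNAi fractions, and THOC3, THOC5 and THOC6 were not called between siRNAs.

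THOC2, the scaffold on which the other subunits assemble, had the largest ratio change of the 6 members. The gene lies at chrX:122734412-122866906 on the minus strand (GRCh37). Its level was 41.5, 35.2 and 40.3 CPM in control nuclei and 70.0, 66.5 and 60.2 CPM in RNAi nuclei. In cytoplasm it was 34.9 CPM in the control sample and 7.79 and 8.64 CPM after RNAi. All 3 RNAi nuclei lay above all 3 control nuclei, and both RNAi cytoplasmic samples lay below every other sample. The nuclear level rose from 39.0 ± 3.33 to 65.6 ± 4.97 CPM (SD, n = 3 each), a log2 fold change of 0.75 (SE 0.10, FDR 0.0128). The cytoplasmic level fell to 23.4% of the control, to 8.21 ± 0.60 CPM (SD, n = 2), a log2 fold change of -2.09 (SE 0.17, FDR 0.000587). Nucleus and cytoplasm did not differ by call in control cells (0.16, SE 0.15, FDR 0.401), whereas in RNAi cells the nuclear level was 8.01 times the cytoplasmic one (log2 fold change 3.00, SE 0.14, FDR 4.51e-07). The change of the ratio was 2.84 on the log2 scale (SE 0.20, FDR 0.000423), and 1.85% of the tested genes had a larger one. The estimated counts behind these values were 605, 517 and 455 in control nuclei, 1007, 718 and 829 in RNAi nuclei, 574 in control cytoplasm and 100 and 79 in RNAi cytoplasm.

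THOC1, a core subunit with few reads in these libraries, also fell in cytoplasm. The gene lies at chr18:214520-268050 on the minus strand. It had 4.19, 6.82 and 4.34 CPM in control nuclei and 5.70, 7.04 and 5.30 CPM in RNAi nuclei, so the nuclear groups overlapped. It had 6.27 CPM in control cytoplasm and 1.25 and 1.64 CPM in RNAi cytoplasm, the 2 lowest values of the 9 samples. These rest on 103 estimated counts in the control and on 16 and 15 counts after RNAi. The gene sums include transcripts annotated with a retained intron, which held 39.9% to 71.9% of THOC1 counts in nuclei and 0% to 23.55% in cytoplasm. Transcripts annotated for nonsense-mediated decay held 89.9% of THOC1 counts in RNAi cytoplasmic replicate 2, where THOC1-208 had 13 estimated counts. They held 0% in RNAi cytoplasmic replicate 1 and 1.76% in control cytoplasm. So these gene levels are not those of coding mRNA alone. The cytoplasmic level fell to 22.8% of the control (log2 fold change -2.13, SE 0.37, FDR 0.00436). The nuclear change was 0.22 (SE 0.23, FDR 0.617), which did not exceed the spread between samples. In RNAi cells the nuclear level was 4.19 times the cytoplasmic one (2.07, SE 0.31, FDR 0.000289), against a log2 difference of -0.29 in control cells (SE 0.31, FDR 0.462). The ratio changed by 2.36 on the log2 scale (SE 0.44, FDR 0.00992), and 3.07% of the tested genes had a larger change.

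RNAs known to stay in the nucleus were also lower in the RNAi cytoplasm relative to nuclei. The cytoplasmic level of MALAT1 was 9.4% of its nuclear level in control cells and 3.7% in RNAi cells. For NEAT1 these shares were 9.7% and 5.4%, for KCNQ1OT1 22.8% and 7.5%, and for PVT1 52.5% and 45.3%. The same shares were 89.5% and 12.5% for THOC2 and 122.6% and 24.0% for THOC1. Within the cytoplasm, the RNAi level was 0.432 of the control for MALAT1, 0.803 for NEAT1, 0.574 for KCNQ1OT1 and 1.116 for PVT1, against 0.235 for THOC2 and 0.23 for THOC1. SNHG14 lay below the limit of 3 counts in every cytoplasmic sample. The part of nuclear RNA in the single control cytoplasmic sample in these results was not tested.

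THOC7, a small subunit, was the most cytoplasmic member and was lower after RNAi in both fractions. The gene lies at chr3:63819546-63849544 on the minus strand. It had 8.79, 8.31 and 9.55 CPM in control nuclei and 6.95, 4.17 and 6.32 CPM in RNAi nuclei, so all RNAi nuclei lay below the control nuclei. It had 33.0 CPM in control cytoplasm and 15.7 and 12.9 CPM in RNAi cytoplasm. The cytoplasmic level fell to 43.6% of the control (log2 fold change -1.20, SE 0.24, FDR 0.00799). The nuclear change of -0.59 (SE 0.19, FDR 0.107) missed the FDR threshold. It passed that threshold with no filter on low counts (FDR 0.0255). The nuclear level was lower than the cytoplasmic one in control cells (-1.89, SE 0.22, FDR 0.000128) and in RNAi cells (-1.29, SE 0.20, FDR 0.000351). Among tested genes 0.513% of the tested genes were more cytoplasmic in control cells and 1.85% in RNAi cells. The change of the ratio, 0.60 (SE 0.31), did not pass (FDR 0.233), and it passed without RNAi nuclear replicate 2 (0.78, FDR 0.0884), so the fall in nuclei and in cytoplasm was not shown to differ.

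THOC5, a subunit that links THO to the export receptor, was the most abundant member. The gene lies at chr22:29901868-29951205 on the minus strand. Control nuclei had 117, 129 and 116 CPM and RNAi nuclei 101, 115 and 104 CPM. Control cytoplasm had 125 CPM and RNAi cytoplasm 153 and 141 CPM. The RNAi nuclei all lay below the control nuclei and the RNAi cytoplasmic samples above the control one, but neither change was called (-0.18, SE 0.09, FDR 0.286 in nuclei and 0.24, SE 0.14, FDR 0.252 in cytoplasm). The ratio changed by -0.42 (SE 0.16, FDR 0.127). In RNAi cells the nuclear level was below the cytoplasmic one by 0.46 on the log2 scale (-0.46, SE 0.10, FDR 0.00249), which passed the FDR and not the fold threshold. It passed both without RNAi nuclear replicate 2 (-0.51, FDR 0.00419) and with no filter on low counts (-0.57, FDR 4.83e-05). Over all 15 alternatives this difference ran from -0.57 to 0.07, with an FDR of up to 0.78, so its direction depended on the processing. As TPM the mean was 55.8 in RNAi nuclei and 53.1 in RNAi cytoplasm.

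THOC3, a core subunit with WD40 repeats, was higher in cytoplasm than in nuclei under both siRNAs. The gene lies at chr5:175344876-175461683 on the minus strand. Nuclei had 27.5, 33.9 and 29.7 CPM in the control and 33.7, 33.8 and 34.7 CPM after RNAi, while cytoplasm had 49.3 CPM in the control and 57.9 and 51.6 CPM after RNAi. Every nuclear sample lay below every cytoplasmic one. The nuclear level was lower by 0.70 on the log2 scale in control cells (-0.70, SE 0.14, FDR 0.00277) and by 0.69 in RNAi cells (-0.69, SE 0.12, FDR 0.000598). The RNAi changes were 0.17 in nuclei (SE 0.11, FDR 0.41) and 0.15 in cytoplasm (SE 0.16, FDR 0.536). The ratio change was 0.01 (SE 0.19, FDR 0.976). In RNAi cells the call was lost with an average transcript length offset (-0.41) and with scaling by library size only (-0.41), and on log2(TPM + 1) with limma the difference was 0.02 (FDR 0.942). THOC3 is also the member whose reads are hardest to place, since 78.6% of the 31-base words in its transcripts occur in transcripts of other genes, chiefly ENSG00000291113 and ENSG00000170089. ENSG00000291113 had 0.234 to 14.0 CPM and ENSG00000170089 was listed at 0 in every sample. Summed with both, THOC3 had 36.5 to 45.7 CPM in nuclei and 58.1 to 63.3 CPM in cytoplasm. The share of such words was 7.61% for THOC5, 1.38% for THOC2 and at most 0.06% for the other members.

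THOC6, a WD40 subunit, was not called in any of the 5 comparisons. The gene lies at chr16:3074028-3077756 on the plus strand. It had 21.5, 34.8 and 20.8 CPM in control nuclei, 19.3, 26.3 and 22.5 CPM in RNAi nuclei, 20.3 CPM in control cytoplasm and 22.8 and 28.5 CPM in RNAi cytoplasm. The siRNA groups overlapped in nuclei, and control nuclear replicate 2 was the highest sample. The log2 changes were -0.19 in nuclei (SE 0.21), 0.33 in cytoplasm (SE 0.31) and -0.52 for the ratio (SE 0.37), with FDR of 0.643, 0.488 and 0.396.

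**Figure D2:**
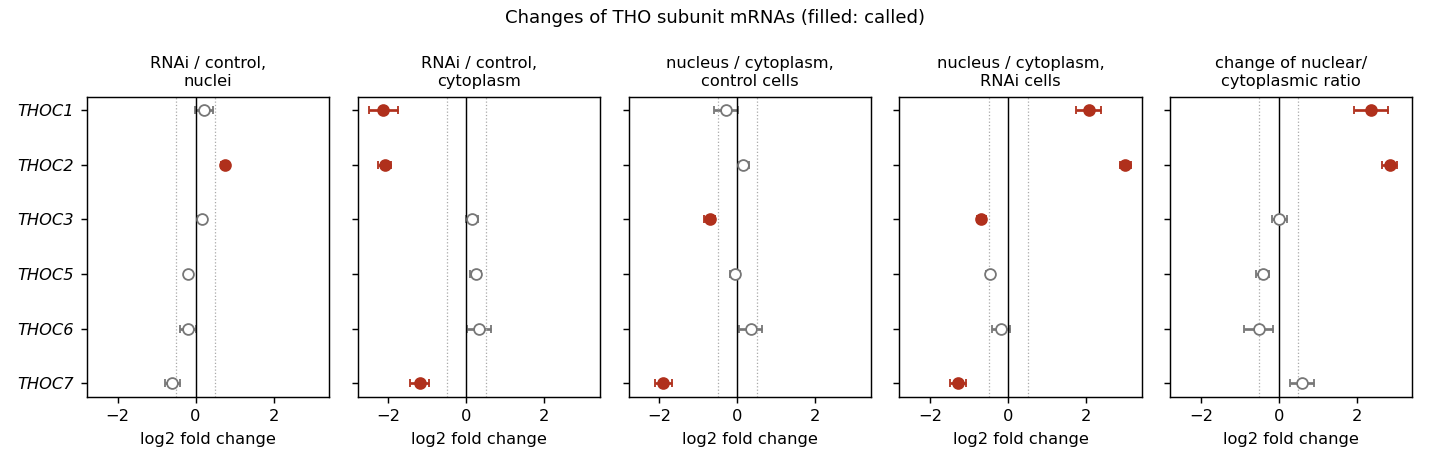
Log2 fold changes (x axis) of the 6 members in 5 comparisons, with SE as bars. Filled points passed both thresholds, and dotted lines mark the fold threshold of 0.5. THOC1 and THOC2 are filled in the cytoplasm, RNAi cell and ratio panels, while THOC3 and THOC7 lie to the left of 0 in both nucleus against cytoplasm panels.

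**Figure D3:**
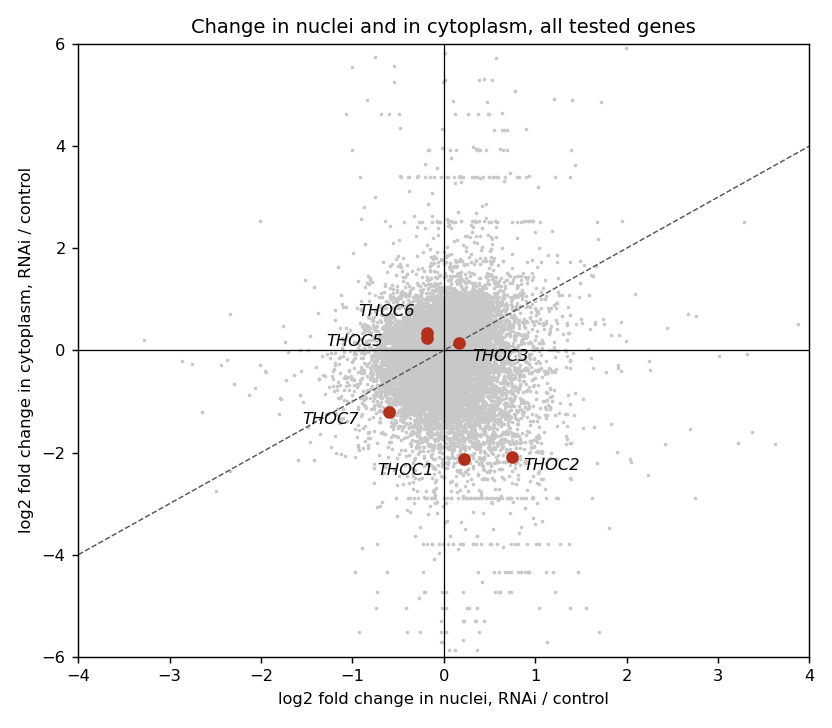
Log2 fold change after RNAi in nuclei (x axis) and in cytoplasm (y axis) for 16181 tested genes in grey, of which 50 lie outside the axes, with the 6 members in red. On the dashed line both changes are equal. THOC1 and THOC2 lie near -2.1 on the y axis and at 0.22 and 0.75 on the x axis, whereas THOC7 is below 0 on both.

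To compare members with each other, levels were also taken per transcript length, as TPM summed per gene. In control nuclei the order was THOC5 (59.3 ± 8.94 TPM), THOC3 (30.4 ± 7.11), THOC6 (23.4 ± 10.02), THOC7 (11.8 ± 0.98), THOC2 (11.8 ± 0.29) and THOC1 (5.68 ± 1.72) (SD, n = 3). THOC3 and THOC6 did not differ beyond their spread, nor did THOC7 and THOC2. In control cytoplasm the TPM order was THOC5 (54.5), THOC3 (49.6), THOC7 (41.0), THOC6 (16.9), THOC2 (11.5) and THOC1 (4.53), with no replicate. In RNAi nuclei THOC2 came after THOC5 (55.8 ± 6.31) and THOC3 (39.8 ± 4.34) with 21.2 ± 1.46 TPM, next to THOC6 with 20.7 ± 4.50 TPM (SD, n = 3), and THOC7 (7.82 ± 1.78) and THOC1 (7.49 ± 2.99) were last and overlapped. In RNAi cytoplasm the order was THOC5 (53.1 ± 8.02), THOC3 (39.2 ± 4.55), THOC6 (17.2 ± 0.80), THOC7 (15.05 ± 3.76), THOC2 (1.92 ± 0.19) and THOC1 (0.74 ± 0.03 TPM, SD, n = 2). THOC2 thus stood at 11.5 TPM beside 54.5 TPM for THOC5 in control cytoplasm and at 1.92 TPM beside 53.1 TPM in RNAi cytoplasm.

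Isoforms were read from the same files. Of the 82 member transcripts 13 were listed at 0 in all samples and 26 had enough counts to be tested among 44726 transcripts. Transcript estimates varied more than gene sums, with a biological coefficient of variation of 0.51 against 0.14 for genes. For the ratio, 1 member transcript was called (THOC2-208, higher, where 1.03% of all tested transcripts were called, 0.637% higher and 0.389% lower). For RNAi against control in nuclei edgeR called 0 of the 44726 transcripts, of which 4416 had an unadjusted p under 0.05, 6 of them among the 26 member transcripts. In cytoplasm THOC2-208 and THOC7-201 fell (2 of 26, where 2.84% were called, 1.68% lower and 1.16% higher). A separate test of isoform usage asks whether a transcript moved differently from the rest of its gene. For the ratio it called 0 member transcripts, where 0.57% of 38779 transcripts were called. An unadjusted p under 0.05 was found for 5 of 26 members and for 2313 of all 38779 transcripts. In nuclei the usage test called 0 members, where 0.642% were called (0.346% higher, 0.297% lower). Such a p was found there for 2 of 26 members and for 1508 of all 38779 transcripts.

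THOC2-208 (ENST00000441692, chrX:122734420-122756696, minus strand) was the largest THOC2 transcript by TPM. Its model is incomplete at the 5′ end, with 10 exons, 4364 nt and a final exon of 3180 nt. It had 6.69, 7.58 and 7.45 TPM in control nuclei, 12.8, 13.3 and 11.3 TPM in RNAi nuclei, 4.51 TPM in control cytoplasm and 1.24 and 1.05 TPM in RNAi cytoplasm. As for the gene, the RNAi nuclei were the highest samples and the RNAi cytoplasm the lowest. Its log2 ratio change was 2.49 (SE 0.21, FDR 0.0483), and its FDR rose to between 0.11 and 0.162 without RNAi nuclear replicate 1, RNAi nuclear replicate 3 or control nuclear replicate 3 in turn. In RNAi cells it was higher in nuclei by 3.08 (SE 0.15, FDR 0.000106). Its share of THOC2 TPM was 61.5% in control nuclei, 58.5% in RNAi nuclei, 39.4% in control cytoplasm and 59.8% in RNAi cytoplasm. THOC2-202, a coding model of 39 exons, had 0 to 0.342 TPM in control nuclei, 0.52 to 1.49 TPM in RNAi nuclei, 1.65 TPM in control cytoplasm and at most 0.225 TPM in RNAi cytoplasm. THOC2-210, a short model incomplete at its 5′ end, reached 3.77 TPM in control cytoplasm (25 estimated counts) and had at most 7 counts in any other sample.

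**Figure D4:**
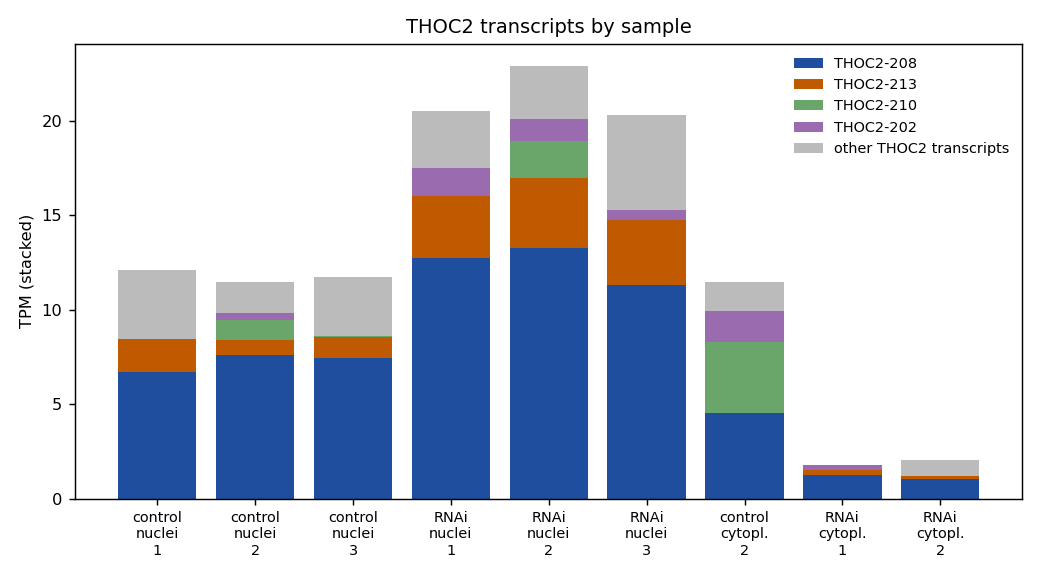
TPM of THOC2 transcripts (y axis, stacked from 0) in each of the 9 samples. Bars are samples and colours transcripts. THOC2-208 is the largest part of every bar, from 11.3 to 13.3 TPM in RNAi nuclei and at most 1.24 TPM in RNAi cytoplasm.

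GGACT is a common form of the sequence in which m6A is written. THOC2-208 holds 4 GGACT words, 3 of them in its final exon. Of these words 3 are shown, the first upstream of the final exon and the others within it, with 12 bases on each side, GGACT in capitals, 5′ to 3′ on the minus strand of GRCh37:

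chrX:122747511-122747539: tgaagtgccaccGGACTtaaccaagagac

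chrX:122735451-122735479: atccttttctggGGACTcaagtctttgtt

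chrX:122735165-122735193: tcaggtgagatcGGACTggaactgttcgg

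GGACT is frequent, since 92.5% of 13351 tested coding genes hold it in their longest coding transcript (sense strand only). By that measure THOC2 had 3 words (0.54 per kb), THOC1 1 (0.47 per kb), THOC3 3 (1.67 per kb), THOC5 4 (0.85 per kb), THOC6 2 (1.42 per kb) and THOC7 0, beside a median of 0.93 per kb. A word is a description of the letters and not a methylation site. In their longest coding transcripts THOC1 and THOC2, with a called ratio change, had fewer words per kb than the median gene, as did THOC5 and THOC7. For THOC2 that transcript had a mean of 0.138 TPM, while the more abundant THOC2-208 holds its 4 words in 4364 nt. The longest final exon was 3180 nt for THOC2, 2642 nt for THOC5, 933 nt for THOC3, 885 nt for THOC1, 808 nt for THOC6 and 399 nt for THOC7, against a median of 1756 nt over tested genes. So THOC1 and THOC2 lay on either side of that median. The 885 nt of THOC1 belong to a transcript with a mean of 0.008 TPM, and the final exon of coding THOC1-201 has 402 nt.

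Nucleus and cytoplasm were also compared by transcript. Of 26 tested member transcripts 8 were called higher in nuclei than in cytoplasm of RNAi cells and 3 lower (THOC3-201, THOC5-204 and THOC7-201, the main coding transcripts), where 43.6% of all tested transcripts were called, 28.6% higher and 15% lower. Without RNAi nuclear replicate 3 the number called higher was 5, and THOC3-208 lost its call in 8 of 11 alternatives. In control cells 7 were called higher and 5 lower, where 32% were called, 21% higher and 11% lower. The 5 tested retained-intron transcripts (THOC1-205, THOC2-213, THOC5-214, THOC5-215 and THOC6-208) were called higher in nuclei of RNAi cells, as were 65.2% of the 7607 retained-intron transcripts tested over all genes. Such transcripts passed the count filter largely through their nuclear samples, which favours a nuclear call, so the count is a description. In control cells THOC6-208 was not called (FDR 0.116). The 5′ splice sites that 4 of them read through are shown with the last 12 exon bases, the first 6 intron bases in capitals and the next 12 intron bases (GRCh37):

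THOC2-213, intron 32 of THOC2-201, chrX:122754740-122754769, minus strand: tccacagtaaagGTTAGTatagcctgagga

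THOC5-214, intron 11 of THOC5-203, chr22:29924397-29924426, minus strand: gagcagactacgGTGAGAaccatttcctct

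THOC5-215, intron 9 of THOC5-203, chr22:29927802-29927831, minus strand: ggcaggcctgtgGTGAGTatggggcctggg

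THOC6-208, intron 4 of THOC6-207, chr16:3075978-3076007, plus strand: tgactttccaagGTGGGTatacctgtggag

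THOC2-213 had 1.77, 0.84 and 1.13 TPM in control nuclei, 3.28, 3.70 and 3.45 TPM in RNAi nuclei, 0 in control cytoplasm and 0.292 and 0.169 TPM in RNAi cytoplasm. All RNAi nuclei lay above the control nuclei, but the log2 change of 1.39 was not called (SE 0.49, FDR 0.417). In RNAi cells it was higher in nuclei (FDR 0.00665), with 23, 17 and 22 estimated counts against 2 and 1. THOC5-215 had 4.69, 4.03 and 5.20 TPM in control nuclei and 4.70, 5.62 and 3.08 TPM in RNAi nuclei, against 0.189 TPM in control cytoplasm and 0.932 and 0 TPM in RNAi cytoplasm. The nuclear groups overlapped, and the nucleus and cytoplasm of RNAi cells differed (FDR 0.0391). THOC5-214 had 21, 53 and 35 estimated counts in control nuclei, 49, 18 and 44 in RNAi nuclei, 0 in control cytoplasm and 5 and 7 in RNAi cytoplasm (FDR 0.0243 for the fractions of RNAi cells, 0.116 without RNAi cytoplasmic replicate 1). THOC6-208, which keeps several introns, had 30 estimated counts over the RNAi nuclei and 0 in RNAi cytoplasm (FDR 0.011). Against the limit of 3 counts over the cytoplasmic group, it was at least 5.65-fold higher in nuclei. THOC1-205 had 34 counts over the RNAi nuclei and 0 in RNAi cytoplasm (FDR 0.0143), at least 6.4-fold higher by the same limit. Both THOC6-208 and THOC1-205 passed the count filter through nuclear samples only, so these bounds are descriptions.

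By share, retained-intron transcripts held 13.0% to 21.3% of THOC5 TPM in the 6 nuclear samples (median 16.2%) and 0.42% to 3.33% in the 3 cytoplasmic samples. For THOC6 the shares were 4.08% to 7.93% (median 5.84%) and 0% to 0.89%. For THOC1 they were 58.7% to 86.1% (median 71.1%) and 0% to 16.3%, on few counts. In each of these genes the fractions did not overlap, nor in THOC3 (1.47% to 8.29% and 0%), while for THOC2 they did, with 12.9% to 30.4% (median 24.3%) in nuclei and 1.55% to 16.4% in cytoplasm. The THOC2 overlap also rests on few counts, with 2 and 1 for THOC2-213 in RNAi cytoplasm. How many other genes separate in this way was not counted. Of the 7607 retained-intron transcripts tested over all genes, 65.2% were called higher in nuclei of RNAi cells, so this separation is a description. Over all 6 genes the retained-intron share was 11.9% to 16.1% in nuclei and 0.65% to 1.6% in cytoplasm, with 11.9% to 13.8% in control nuclei and 14.5% to 16.1% in RNAi nuclei. As a share of estimated counts, which are not per length, it was 3.76% to 5.75% in nuclei and 0.41% to 0.57% in cytoplasm, and the control nuclei (3.76% to 5.07%) then met the RNAi nuclei (5.07% to 5.75%). In the usage test for RNAi cells, THOC3-208 (FDR 0.0107), THOC5-214 (FDR 0.0533), THOC5-215 (FDR 0.0336) and THOC6-208 (FDR 0.00821) took a larger part of their gene in nuclei. These are 4 of 26 tested member transcripts, against 16.7% of all transcripts called, 14.5% in that direction and 2.12% in the other. Among retained-intron transcripts 42.8% of 7397 were called in that direction. For them the count filter favours a nuclear call in this test too, so their usage calls are a description. The call of THOC5-214 was lost without either RNAi cytoplasmic replicate (FDR 0.321 without replicate 1 and 0.109 without replicate 2), and those of THOC3-208 without replicate 1 (FDR 0.26) and of THOC5-215 without replicate 2 (FDR 0.272).

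**Figure D5:**
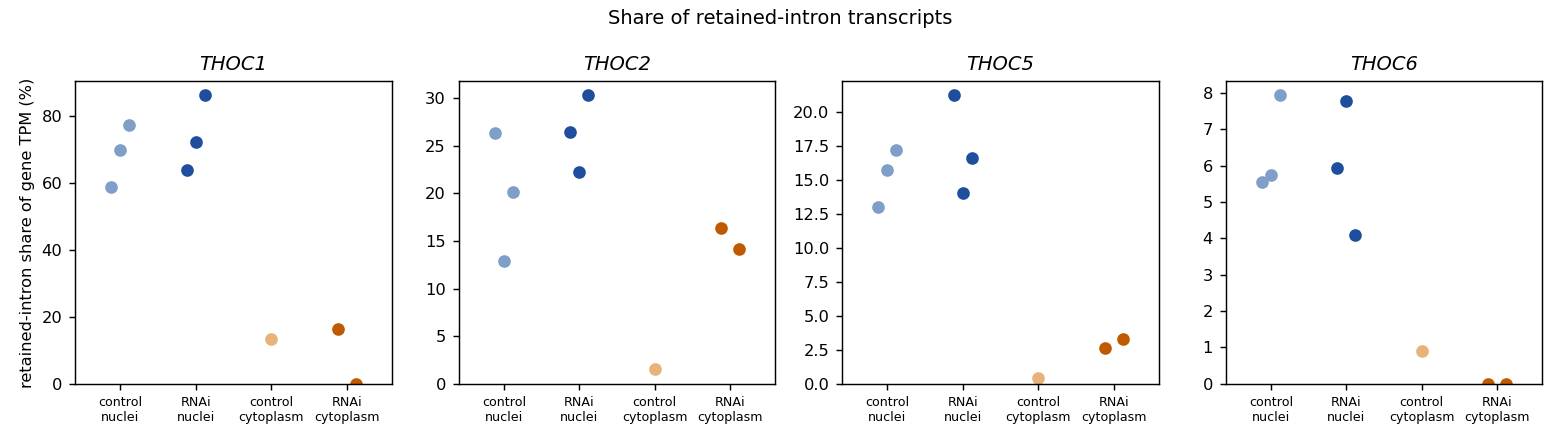
Share of gene TPM in transcripts annotated with a retained intron (y axis, percent, from 0) for THOC1, THOC2, THOC5 and THOC6 by group, with 1 point per sample. Nuclear points lie above all cytoplasmic points for THOC1, THOC5 and THOC6, and the fractions overlap for THOC2, on few cytoplasmic counts.

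The main transcript of THOC7, THOC7-201 (ENST00000295899, 8 exons), followed its gene. It had 9.33, 10.6 and 11.4 TPM in control nuclei, 6.69, 5.77 and 6.80 TPM in RNAi nuclei, 34.4 TPM in control cytoplasm and 15.4 and 9.93 TPM in RNAi cytoplasm. Its level in RNAi cells was lower in nuclei than in cytoplasm by 1.30 on the log2 scale (-1.30, SE 0.22, FDR 0.00452). THOC5-204, the main transcript of THOC5, had 27.4 to 30.7 TPM in control nuclei, 26.96 to 29.5 TPM in RNAi nuclei, 29.9 TPM in control cytoplasm and 43.7 and 33.3 TPM in RNAi cytoplasm. THOC6-207 led THOC6 with 8.90, 26.2 and 8.95 TPM in control nuclei, where replicate 2 stood apart from the others, and 8.84 to 14.3 TPM in the other groups. THOC3-210, a coding model of 4 exons, had 2.83, 5.17 and 7.34 TPM in control nuclei and 13.8, 14.9 and 19.0 TPM in RNAi nuclei. These groups did not overlap, and the log2 change was 1.63 (SE 0.39, FDR 0.245), with an FDR of 0.767 in the usage test. THOC1 had no transcript with more than 75 estimated counts in any sample, so its isoforms could not be followed at this depth.

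The mRNAs of proteins that work beside THO were read in the same way. Of 11 listed TREX partners and receptors, all tested, 1 was called for the ratio (higher), 0 in nuclei and 2 in cytoplasm (1 higher, 1 lower), with median log2 changes of -0.01, -0.03 and -0.04. Beside these counts and those of TREX-2 below, 18.2% of all tested genes were called for the ratio, 4.89% in nuclei and 24.6% in cytoplasm. In nuclei 1 of the 11 had an unadjusted p under 0.05 with edgeR, as had 3369 of all 16181 tested genes. DESeq2 also called 0 of the 11 in nuclei. ZC3H11A, a zinc finger protein of TREX, had a ratio change of 0.82 (SE 0.19, FDR 0.0245). Its cytoplasmic level was 65.8 CPM in the control and 45.5 and 37.7 CPM after RNAi (-0.66, SE 0.16, FDR 0.0179), and its nuclear change was 0.17 (SE 0.11, FDR 0.415). NXT1, the small partner of NXF1, was higher in RNAi cytoplasm with 39.6 and 59.6 CPM against 28.05 CPM (0.82, SE 0.27, FDR 0.0602). That call held in 11 of 15 alternatives (0.45 to 1.09), and was lost without RNAi cytoplasmic replicate 2 (0.45) or control nuclear replicate 3 (0.76, FDR 0.11). It was also lost with scaling by library size only (0.548, FDR 0.2585) and with limma on log2(TPM + 1) (0.515, FDR 0.4351). DDX39B, the helicase that binds THO, was 3.35 times higher in nuclei than in cytoplasm of control cells and 3.32 times in RNAi cells, with a ratio change of -0.01 (SE 0.18, FDR 0.977). For ALYREF the ratio change was -0.003 (SE 0.34, FDR 0.9999) and for NXF1 0.07 (SE 0.27, FDR 0.892). Of 6 listed TREX-2 genes, which act at the nuclear pore, ENY2 was called for the ratio (0.88, SE 0.24, FDR 0.0403). It fell in nuclei (-0.56, SE 0.14, FDR 0.0549) and in cytoplasm (-1.43, SE 0.19, FDR 0.00152), and the other 5 genes were called in none of these 3 comparisons. The ENY2 call held in 13 of 15 alternatives for the ratio and in cytoplasm (lost with a length offset and with limma) and in 8 of 15 in nuclei (-0.64 to -0.14), where it was lost without any one of the RNAi nuclear replicates (FDR 0.131, 0.182 and 0.165 without replicates 1, 2 and 3) or control nuclear replicate 3 (FDR 0.182).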

How the data were processed

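Poly(A) mRNA libraries of 9 samples (4 groups) were sequenced as paired ends. Per the study's methods, the authors removed 9 nt from read 1 and 6 nt from read 2 with cutadapt, merged lanes and quantified reads with salmon against Ensembl transcripts of hg19 (tool versions are not given in the sources used here). The deposited files hold an estimated count and an effective length per transcript, as the authors' salmon runs gave them. They also hold the deposited TPM, which is a level per transcript length.

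Transcripts were matched to GENCODE v44lift37 (GRCh37), where 85.1% of 215170 were found, with 83.07% to 88.31% of the counts. Unmatched transcripts were left out. Gene values are rounded sums of the estimated counts of their transcripts. Genes and transcripts that reached 10 estimated counts in 3 or more samples were fitted with edgeR 4.0.16 (TMM, quasi-likelihood, 4 groups, 9 samples, R 4.3.3), and p was adjusted by Benjamini-Hochberg over all of them. The single control cytoplasmic sample borrowed its spread from the other groups. Usage was tested with diffSpliceDGE. Alternatives used DESeq2 1.42.0 and limma 3.58.1 on log2(TPM + 1), other scalings and filters, and each replicate left out in turn. The fits were tried on simulated counts, for RNAi against control in nuclei only. The simulated spread was the same for genes and transcripts and below that of the real transcripts. It therefore does not vouch for transcript or usage calls, nor for comparisons with the control cytoplasm. A gene with no count was given a limit of 3 counts, which covers counting error only, since the reads carry no molecular identifiers.

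The text names the 6 members, their transcripts with a mean of at least 1 TPM or at least 10% of the gene in a group, both siRNA targets, and genes of the TREX and TREX-2 lists. THOC1-205 and THOC6-208 fall outside this rule and were named after their values were seen. One listed marker gene and one sequence window are not reported here. The members and lists were chosen with earlier results of these data known.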

Additional observations from a re-analysis of the deposited data

Results flagged for a closer look

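Both results below were picked out because the effect of the siRNAs differed between nuclei and cytoplasm in the test of the difference itself, edgeR's interaction term over all genes. THOC1 had a change of the nuclear/cytoplasmic ratio of 2.36 on the log2 scale (SE 0.44, FDR 0.00992). It was lower in 2 of 2 RNAi cytoplasmic samples than in the control one. The THOC1 value is a gene sum of coding, retained-intron and nonsense-mediated decay transcripts. THOC2 had a change of 2.84 (SE 0.20, FDR 0.000423), lower in 2 of 2 RNAi cytoplasmic samples and higher in 3 of 3 RNAi nuclear samples. Both rest on 1 control cytoplasmic sample. No group had the 4 samples needed to look for a sample far from the others.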

How the results depend on the processing

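The ratio changes of THOC1 (1.98 to 2.63) and THOC2 (2.77 to 3.13), the cytoplasmic changes of THOC1 (-2.39 to -1.66), THOC2 (-2.35 to -2.01) and THOC7 (-1.45 to -1.12) and the nuclear change of THOC2 (0.68 to 0.81) kept direction and call in all 15 alternatives. THOC3 between fractions of RNAi cells was 0.021 with limma on log2(TPM + 1), and the cause was not tested. Over member genes, 438 of 450 values kept their status as called or not called, as did 1585 of 1611 for member transcripts. Values called in neither fit count as kept, so these totals do not measure how firm the calls were. THOC2-208 kept its call for the ratio in 7 of 11 alternatives and between fractions of RNAi cells in 11 of 11. THOC3-208 kept its call between those fractions in 3 of 11. With no low-count filter 2 members were called in nuclei, in place of 1. With at least 10 estimated counts in every sample, usage called THOC3-210 as the 1 member transcript in nuclei (in place of 0) and the 1 between fractions of RNAi cells, where none of the 4 called otherwise was among the 10 tested. Leaving out 1 replicate at a time gave 0 to 1 member transcripts for the ratio, 0 to 1 by usage for the ratio, 0 to 1 by usage in nuclei and 2 to 4 by usage between fractions of RNAi cells. The usage calls gained were both THOC2-202 without control nuclear replicate 2.

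Same-numbered control and RNAi nuclei had deviations correlated at 0.185, 0.11 and 0.042, which are not all above 0.1, the limit set for pairing, so the numbers were not treated as pairs. Each nuclear sample except RNAi replicate 3 correlated best with its own number in the other nuclear group, a hint from the data and not from the design. Against RNAi cytoplasm, the same-number values were 0.197 and 0.194 for control nuclei and 0.1 and 0.037 for RNAi nuclei. A replicate block gave 4 members for the ratio in place of 2 (adding THOC6 at -0.74 and THOC7 at 0.76), 2 in nuclei in place of 1 (adding THOC7) and 0 transcripts for the ratio in place of 1 (THOC2-208, FDR 0.216). With the block, THOC6 was also called in cytoplasm (0.58) and between fractions of control cells (0.62). Calls over all 16181 genes rose with the block too, from 2953 to 4038 for the ratio, from 792 to 1035 in nuclei and from 3984 to 4720 in cytoplasm. Between fractions of control cells they went from 8217 to 8061.

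Over all genes, 2953 were called for the ratio and 1783 with a length offset, 1204 with limma, 1957 without RNAi nuclear replicate 3 and 1921 without control nuclear replicate 3. In nuclei 792 were called, with 440, 490, 158 and 1306 under a length offset, library size only, limma and no filter, and 52 to 1071 with 1 replicate left out. In cytoplasm 3984 were called and 1595 with limma. Over all transcripts, 459 were called for the ratio, 222 with no filter, 0 with the replicate block and 0 to 702 with 1 replicate left out, and 0 in nuclei became 70 with no filter. With at least 10 estimated counts in every sample, usage calls went from 221 to 36 for the ratio, from 249 to 73 in nuclei (138 with the block, 144 without RNAi nuclear replicate 3) and from 6462 to 1333 between fractions of RNAi cells (4242 without RNAi cytoplasmic replicate 1). Scaling by library size only moved the median of all genes for the ratio from -0.05 to 0.23 and the share called higher from 56.9% to 93.2%. In cytoplasm that share went from 42.1% to 11.9%. The control cytoplasm could not be left out, and levels near 3 counts (THOC1 transcripts above all) were not resolved at this depth.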

Other observations

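For each member, the 2 tested protein-coding genes with the most similar pattern of log2 CPM over the 9 samples were listed by Pearson's r, as a description, since the samples fall into 2 fractions that most genes follow. They were MPHOSPH9 (0.996) and SMC4 (0.995) for THOC2, HNRNPH1 (0.983) and CEP44 (0.98) for THOC1, and PAIP1 (0.99) and MOB1A (0.988) for THOC7. For THOC3 they were MAPKAPK5 (0.993) and MRPS11 (0.99), for THOC5 DVL2 (0.983) and TUBA4A (0.979), and for THOC6 OSBPL2 (0.953) and UNC45A (0.938). The number of genes with r above 0.9 was 5 for THOC6, 139 for THOC1, 156 for THOC5, 524 for THOC2, 527 for THOC7 and 1008 for THOC3.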
